A study of Homo sapiens with 6 samples.

Results

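Among the open chromatin regions that every library of the series shared, 825 regions away from promoters ranked higher by accessibility signal in all CB-6644 libraries than in all DMSO libraries. They are called stronger regions here, which refers to rank within a library and not to the unscaled signal. Omni-ATAC, which cuts and tags open chromatin with a transposase, was applied to the MM.1S line, with 3 libraries from cells given CB-6644 (120 nM, 72 h) and 3 from cells given DMSO. MM.1S is an established cell line from multiple myeloma, a cancer of plasma cells, and CB-6644 inhibits the RUVBL1/2 ATPase complex. The labels give no dose or time for the DMSO libraries, and the study's methods state that live cells sorted by flow cytometry were used. All libraries came from this 1 cell line, and no source states that replicates were separate cultures. The spread between replicates may therefore be technical, and fewer open cells and less opening per cell cannot be told apart in bulk libraries.

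Members were found by merging the peaks of all 6 lists where they overlapped by at least 1 bp, which gave 89196 regions on chromosomes 1 to 22, X and Y. Of these, 42089 were called in all 6 libraries, 39695 of those were under 1200 bp, and 28333 of those lay more than 1000 bp from any protein-coding transcription start site (TSS). The 28333 are the shared distal regions and serve as the background throughout. Each peak's fold enrichment, the ratio of its summit pile-up to the local background given by the authors' peak caller, was turned into a percentile within its own list. A region was stronger when its lowest CB-6644 percentile exceeded its highest DMSO percentile by at least 5 points, and this difference is called the margin. The mirror rule gave 3313 weaker regions. The stronger regions were 2.91% of the shared distal regions and the weaker ones 11.7%. With percentiles taken over the shared distal regions only, 1956 were stronger and 2073 weaker, and with all lists reduced to equal length 1704 and 1543, so the balance between the sets depended on which peaks were ranked. Because members were chosen by the percentiles of all 6 libraries, these percentages, the percentiles, the fold enrichments and the pile-ups are descriptions, and no test was made on them. Regions are not replicates, so the 95% Wilson intervals given for shares of regions cover counting error only.

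Distal open regions include enhancers, stretches of regulatory DNA where transcription factors bind and act on promoters at a distance. In plasma cells and myeloma, such regions are known to be bound by IRF4, by E proteins that read E-box sequences, by NF-kB factors and, in some myelomas, by MAF. ATF4 with C/EBP partners binds regulatory DNA in cells under amino acid or protein folding stress. AP-1 factors of the FOS, JUN and BATF families bind distal regions in most cell types.

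Libraries did not have equal peak lists. The lists held 58563 to 71781 peaks with CB-6644 and 65569 to 79020 with DMSO. CB-6644 replicate 2 and DMSO replicate 1 stood apart, with shortest peaks of 65 and 91 bp where the other 4 lists began at 131 to 152 bp. CB-6644 replicate 2 also had the lowest background, 3.20 tags per kb against 5.67 to 9.08 in the others, so its pile-ups are the least precise. The rule gave 1532 stronger regions without CB-6644 replicate 2, 2052 without DMSO replicate 1 and 3034 without both. These were 4.71%, 7.16% and 9.01% of the shared distal regions then formed, and the weaker regions numbered 6393, 4471 and 8410. Leaving out any other single library also raised the number of stronger regions, to between 1097 and 1258. As a check of the labelled cell type, 9 of 10 plasma cell markers had a promoter peak in all 6 lists. So had 3 of 6 T cell, 2 of 6 myeloid, 1 of 5 erythroid and 1 of 5 stromal markers, with 2 to 4 of the stromal markers in each list. CD3E, CD3D and CD4 were the T cell markers with no promoter peak in any list.

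Windows of 4 stronger regions are printed because they hold MAF matches, a motif more frequent in the members than in the background. Each is hg38 sequence on the plus strand, 60 bp to either side of the summit, with matches to the 6 motifs of main interest in capitals (MAF, CAGGTG E-box, NF-kB, AP-1, IRF and ATF4-CEBP). In the SEMA6A window (chr5:117131198-117131318) an NF-kB match is followed by a CAGGTG E-box that overlaps a MAF match, TGCTGAC. The AIM2 window (chr1:159152198-159152318) has a MAF match and no other of the 6. The ABCA13 window (chr7:48347545-48347665) has a MAF match on the minus strand. In the SGK1 window (chr6:134373575-134373695) the MAF match runs into an AP-1 match, and the joined letters match the long MAF recognition element.
SEMA6A: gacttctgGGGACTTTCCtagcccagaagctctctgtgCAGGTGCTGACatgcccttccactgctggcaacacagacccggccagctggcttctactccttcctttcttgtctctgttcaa
AIM2: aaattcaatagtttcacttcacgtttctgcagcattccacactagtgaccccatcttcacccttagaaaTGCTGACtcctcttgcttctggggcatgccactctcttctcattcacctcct
ABCA13: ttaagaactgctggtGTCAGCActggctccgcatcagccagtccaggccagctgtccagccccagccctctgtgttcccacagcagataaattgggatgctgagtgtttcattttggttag
SGK1: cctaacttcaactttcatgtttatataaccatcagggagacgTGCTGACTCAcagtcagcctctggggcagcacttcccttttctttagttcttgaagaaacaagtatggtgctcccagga

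Further windows show E-box, AP-1 and NF-kB matches. SND1 (chr7:127838098-127838218) has 3 CAGGTG E-boxes and 3 AP-1 matches, and its first E-box overlaps its first AP-1 match. PDGFB (chr22:39247578-39247698) has 3 E-boxes on the minus strand. NXPH1 (chr7:8354150-8354270) has an NF-kB match at the window's edge. TIPARP (chr3:156626232-156626352), the member with the smaller margin at that gene, has an AP-1 match and an E-box.
SND1: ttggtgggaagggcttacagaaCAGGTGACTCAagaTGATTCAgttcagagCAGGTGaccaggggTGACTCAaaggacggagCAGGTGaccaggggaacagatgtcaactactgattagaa
PDGFB: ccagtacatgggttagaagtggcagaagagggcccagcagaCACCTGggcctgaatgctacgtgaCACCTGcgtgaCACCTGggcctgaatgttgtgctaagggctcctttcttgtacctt
NXPH1: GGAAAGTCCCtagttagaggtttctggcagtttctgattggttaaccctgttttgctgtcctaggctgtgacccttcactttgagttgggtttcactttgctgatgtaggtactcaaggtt
TIPARP: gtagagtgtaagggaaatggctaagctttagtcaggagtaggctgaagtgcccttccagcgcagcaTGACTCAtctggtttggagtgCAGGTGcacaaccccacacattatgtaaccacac

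The stronger regions lay at a middle level in DMSO cells. Their median percentile was 71.9, 70.7 and 69.2 in CB-6644 replicates 1, 2 and 3, and 48.5, 43.2 and 39.3 in DMSO replicates 1, 2 and 3. Over all shared distal regions the medians were 61.5, 62.0 and 61.0 with CB-6644 and 69.4, 67.3 and 64.6 with DMSO. The members thus stood above the typical shared distal region in each CB-6644 library and below it in each DMSO library, a contrast that the rule itself fixes. Median fold enrichment of the members was 19.4, 19.3 and 19.4 with CB-6644 and 14.1, 13.0 and 11.7 with DMSO.

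**Figure D1:**
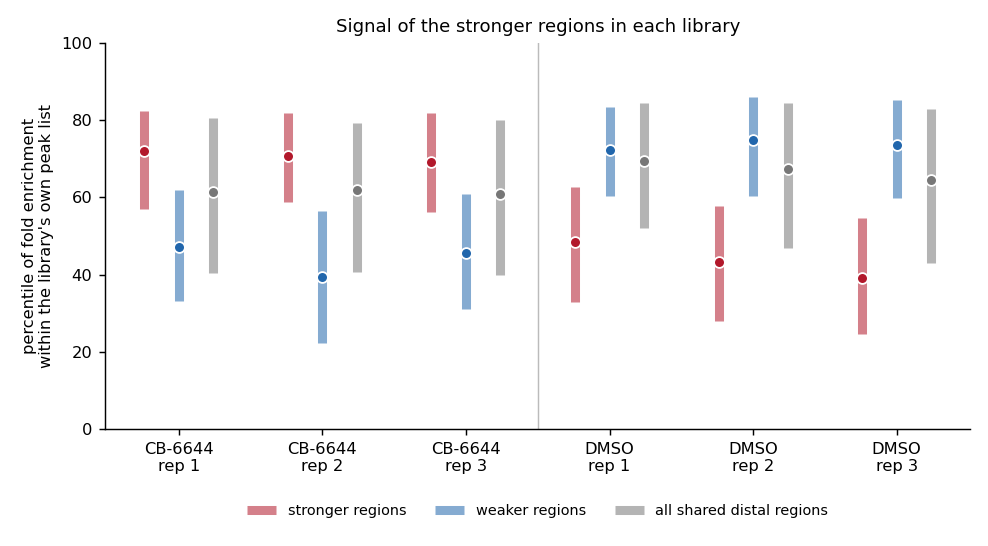
Percentile of fold enrichment within each library's own peak list (vertical axis, 0 to 100) in the 3 CB-6644 and 3 DMSO libraries, for the 825 stronger, 3313 weaker and all 28333 shared distal regions, with the median as a point and the middle 50% of regions as a bar. Medians of the stronger regions run from 69.2 to 71.9 with CB-6644 and from 39.3 to 48.5 with DMSO.

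Pile-ups, the number of tags stacked at the summit, were recovered from each peak's fold enrichment and p-value. Members had median pile-ups of 55, 28 and 60 tags in the CB-6644 libraries and 27, 37 and 34 in the DMSO libraries. Set against the median of all shared distal regions of the same library, these were 1.12, 1.17 and 1.07 times as high with CB-6644 and 0.509, 0.493 and 0.493 times as high with DMSO. Within a library, then, members were slightly above the typical region in treated cells and well below it in control cells. The raw pile-ups of the 6 libraries were higher in every treated than in every control library in 178 members, 21.6%, and in 0.847% of all shared distal regions. CB-6644 replicate 2, the library with the lowest background, was then left aside. The pile-up of both other CB-6644 libraries exceeded every DMSO library in 677 members, 82.1%, and in 8.14% of all shared distal regions. Fold enrichment is built from the pile-up, so the rule in part fixes these counts and nothing is read from them.

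The margin ran from 5.003 to 47.1 points with a median of 10.8. It reached 10 points in 454 members, 20 points in 138 and 30 points in 29. Just inside the limit, regions nearest SYBU, LYSMD4 and GADD45G had margins of 5.003, 5.01 and 5.02 points, and just outside it regions nearest HHIPL2, ASAP1 and CDCA5 all had 4.99. A further 883 regions had all CB-6644 libraries above all DMSO libraries by less than 5 points. Spread between replicates was of the size of the margin: the range over the 3 libraries of a group had a median of 10.2 points with CB-6644 and 11.8 points with DMSO. Over all shared distal regions these medians were 16.6 and 11.9 points. DMSO replicate 1 was the highest DMSO library in 57.2% of members, so it often set the margin. It was also the highest in 50.4% of all shared distal regions.

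How often a region was stronger fell with its level in DMSO cells. Of shared distal regions with a mean DMSO percentile under 20, 8.19% were stronger, and of those between 20 and 40, 7.08% were. The share was 4.49% between 40 and 60, 1.89% between 60 and 80 and 0.166% above 80. Weaker regions had the opposite pattern, from 0.334% in the lowest class to 16.0% between 60 and 80. A percentile near the top leaves little room for a rise of 5 points, so this pattern is in part set by the rule.

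The largest margin, 47.1 points, belonged to an intergenic region 57.9 kb from the TSS of TIPARP, which encodes a mono-ADP-ribosyltransferase (chr3:156614938-156615292). Its percentile was 85.6, 81.9 and 86.0 in CB-6644 replicates 1 to 3 and 29.9, 24.7 and 34.8 in DMSO replicates 1 to 3. Pile-up at its summit was 74, 39 and 86 tags with CB-6644 and 15, 19 and 25 with DMSO. Every treated library, the one with the lowest background included, was above every control library by percentile and by pile-up.

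An intron of MTERF1, the gene of a mitochondrial transcription termination factor, held the next region. Percentiles there were 80.8, 65.8 and 81.6 with CB-6644 and 16.9, 15.1 and 22.2 with DMSO. CB-6644 replicate 2 was the lowest treated library and still lay far above the controls. An intron of NUP210L, which encodes a nucleoporin-like protein, had percentiles of 92.4, 95.6 and 97.6 with CB-6644 and 49.8, 29.5 and 43.1 with DMSO (chr1:154115124-154115462). This region came close to the top of the treated lists and was of middle rank in the controls.

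The region with the NF-kB, E-box and MAF matches printed above lay 556 kb from SEMA6A, a transmembrane semaphorin gene (chr5:117131116-117131378). It had percentiles of 78.2, 79.96 and 88.4 with CB-6644 and 37.1, 38.1 and 27.1 with DMSO. Pile-ups were 53, 33 and 65 with CB-6644 and 17, 25 and 20 with DMSO, with no overlap.

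A MAF match also marked the region in an intron of AIM2, the gene of a cytosolic DNA sensor, 5.02 kb from its TSS (chr1:159152118-159152343). Percentiles were 93.8, 76.7 and 94.4 with CB-6644 and 16.9, 38.1 and 19.7 with DMSO. The spread was wide on both sides, with CB-6644 replicate 2 and DMSO replicate 2 nearest to each other. In an intron of ABCA13, a lipid transporter gene, the region with MAF and NF-kB matches had 69.2, 67.8 and 68.4 with CB-6644 and 9.45, 29.5 and 24.7 with DMSO (chr7:48347386-48347789). Treated libraries there agreed within 2 points while the controls spread over 20.

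The other 9 of the 15 members with the largest margin, among them those nearest NABP1, GLB1, TGFBR2, NXPH1, GALNT5, ATXN3L, SND1 and PTGFRN, had margins down to 34.4 points. Over the 15, the lowest CB-6644 percentile ran from 40.7 to 92.4 and the highest DMSO percentile from 4.86 to 49.8. GALNT5, a gene of protein O-glycosylation, had the lowest ranks, with 40.7, 46.7 and 44.5 against 3.29, 4.86 and 1.77. Its raw pile-ups were 50, 19 and 57 with CB-6644 and 26, 52 and 44 with DMSO, which overlap. Median pile-ups of all shared distal regions were 49, 24 and 56 with CB-6644 and 53, 75 and 69 with DMSO. Raw heights are thus not on a common scale, and how far height or local background made its margin was not tested. Of the 15 regions, 7 lay in introns of coding genes and 12 held at least 1 of the 6 motifs of main interest: CAGGTG E-box in 6, MAF in 5, NF-kB in 3, AP-1 in 3 and IRF in 1.

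**Figure D2:**
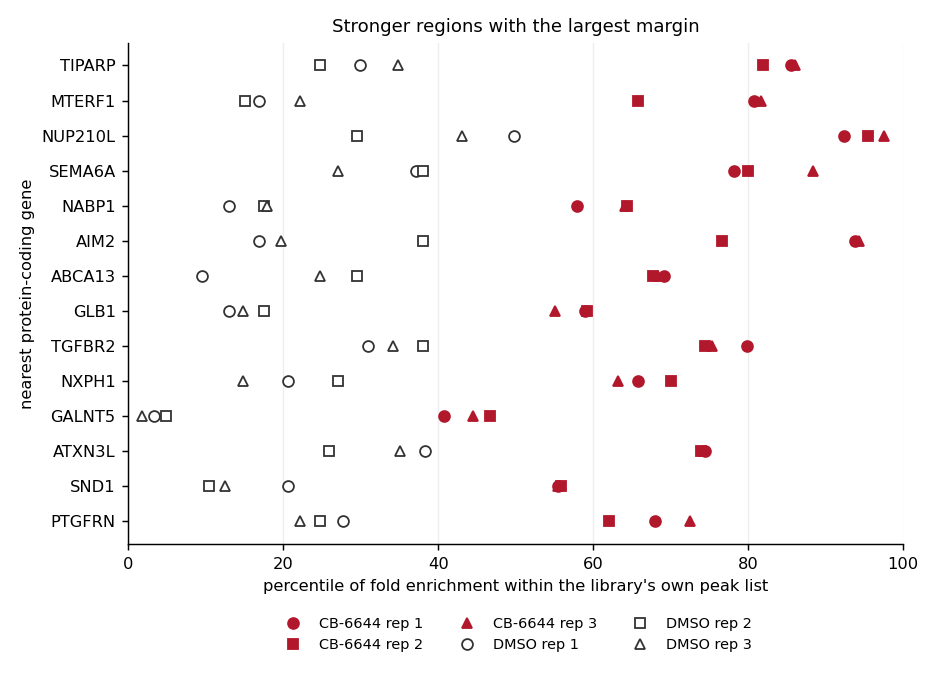
Percentile of fold enrichment (horizontal axis, 0 to 100) in each of the 6 libraries for 14 of the 15 stronger regions with the largest margin, named by the nearest protein-coding gene, with filled symbols for CB-6644 and open symbols for DMSO and a symbol shape for each replicate number. The TIPARP region is at 81.9 to 86.0 with CB-6644 and at 24.7 to 34.8 with DMSO, and the GALNT5 region has the lowest values on both sides.

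Members with the highest treated ranks already had high percentiles of fold enrichment in control cells. In an intron of RTN4RL1, a Nogo receptor family gene (chr17:1999888-2000224), percentiles were 99.4, 99.3 and 98.4 with CB-6644 and 75.7, 81.2 and 78.5 with DMSO. Its pile-ups were 135, 115 and 148 with CB-6644 and 44, 62 and 56 with DMSO. The DMSO values were below the medians of all shared distal regions, 53, 75 and 69. Even the treated library with the lowest background had more tags than any control. The other 4, nearest KLHDC8A, RAB3IL1, DSCAM and ITPKB, had margins of 6.72, 9.79, 12.5 and 7.17 points. All 5 had a motif of main interest, the CAGGTG E-box in 4 and AP-1 in the ITPKB region.

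Members were counted for the gene of the closest coding TSS where that was no more than 200 kb away, which held for 697 of them and not for 128. The 697 were spread over 653 genes, 6.47% of the 10098 genes with any shared distal region, and 41 genes had at least 2. Of the 653 genes, 190 also had a weaker region, as did 2287 (22.6%) of the 10098. ANKRD46, IRX1 and NPFFR1 were the only genes with 3 members, out of 10, 5 and 4 shared distal regions. TIPARP, EDEM1, PPDPFL, PDGFB, NFKB1 and TXNDC11 were among those with 2, and of the genes named here ANKRD46 and PDGFB also had weaker regions, 1 and 2. Assignment by distance does not show that a region acts on the gene.

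Both members of TIPARP lay upstream within 60 kb of its TSS. The nearer, whose sequence is printed above (chr3:156626098-156626473), had percentiles of 63.6, 75.1 and 67.2 with CB-6644 and 49.8, 51.9 and 48.1 with DMSO. Its margin of 11.8 points was about the spread of the treated libraries.

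Gene lists are described by their counts, to be read beside the 2.91% stronger and 11.7% weaker of all shared distal regions. Of the 14 lists, with 318 genes in all, 13 had a member, at 21 genes together. The list of NF-kB pathway genes had 3 stronger and 5 weaker among 69 shared distal regions, or 4.35% and 7.25%. NFKB1, which encodes the p105 precursor of the p50 subunit, had 2 of the 3. Its intronic member (chr4:102546620-102546843) had 45.4, 43.2 and 47.4 with CB-6644 and 14.3, 16.4 and 13.1 with DMSO. The other, 22.7 kb upstream (chr4:102478154-102478635), had 86.9, 85.9 and 91.9 with CB-6644 and 63.2, 72.4 and 62.1 with DMSO. The last of the 3 was assigned to TRAF1, a signalling adaptor and NF-kB target. It lay in an intron of another gene, C5, 42.8 kb from the TRAF1 TSS. Percentiles were 47.9, 49.5 and 75.6 against 34.1, 17.5 and 22.2, where CB-6644 replicate 3 stood far above the other treated libraries.

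Genes of plasma cell identity had 5 stronger and 9 weaker among 111 regions, or 4.50% and 8.11%. FCRL5, an Fc receptor-like surface protein of B and plasma cells, had 2. The member 56.8 kb from its TSS (chr1:157495306-157495618) had 49.9, 74.8 and 55.2 with CB-6644 and 35.8, 30.1 and 18.2 with DMSO. The member 181 kb away (chr1:157370782-157371084) had 78.5, 79.96 and 83.2 with CB-6644 and 65.5, 55.2 and 48.2 with DMSO. Both windows held a MAF match and an E-box within 100 bp of the summit.

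Margins of the members at PRDM1, XBP1 and SDC1 were small. A region 100 kb from PRDM1, the gene of Blimp-1, had 84.6, 83.9 and 92.2 with CB-6644 and 76.3, 77.2 and 71.2 with DMSO. One 22.3 kb from XBP1, the transcription factor of the unfolded protein response, had 46.6, 64.8 and 45.7 against 36.4, 31.0 and 33.2. One 25.7 kb from SDC1, which encodes the plasma cell surface marker CD138, had 89.5, 95.9 and 86.3 against 78.0, 77.3 and 76.5. In these 3 regions the margin was 6.77, 9.32 and 8.28 points, less than the range of the treated libraries. PRDM1 and XBP1 also had weaker regions on the same list. IRF4, CD38, CREB3L2 and CD28 had weaker regions and no stronger one.

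Among 58 regions of secretory and unfolded protein response genes 2 were stronger and 2 weaker, 3.45% each beside 2.91% and 11.7% of all regions. Both stronger ones were intergenic, 188 and 57.5 kb from the TSS of EDEM1, which helps to clear misfolded glycoproteins. They had 70.2, 66.5 and 61.1 against 31.0, 19.97 and 29.5, and 63.6, 69.4 and 66.6 against 42.5, 33.8 and 14.8. The more distant one, given first, belongs to a repeated sequence described below. The amino acid and integrated stress list had 1 stronger and 1 weaker region among 28, 3.57% each, and the stronger one lay in an intron of PHGDH, the first enzyme of serine synthesis. Its percentiles were 72.7, 88.6 and 70.8 with CB-6644 and 52.0, 27.1 and 17.3 with DMSO, so DMSO replicate 1 stood well above the other controls.

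Survival and p53 genes are represented by BCL2 and PMAIP1. A region 45.8 kb from BCL2, which blocks apoptosis, had 64.1, 62.4 and 62.7 with CB-6644 and 39.2, 39.2 and 34.9 with DMSO, a tight separation on both sides. PMAIP1, which encodes the pro-apoptotic NOXA, had a member with a margin of 5.53 points and also weaker regions. It was the only stronger region of the p53 pathway list, against 10 weaker among 59, or 1.69% and 16.9%. On the list of the BCL2 family, which holds both genes, 2 regions were stronger and 3 weaker among 45, or 4.44% and 6.67%.

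Glucocorticoid receptor genes had 3 stronger and 2 weaker among 42 regions, or 7.14% and 4.76% beside 2.91% and 11.7% of all regions. The receptor gene NR3C1 itself had an intronic member with 69.9, 71.1 and 73.4 against 59.6, 48.2 and 49.6. NR3C1 also had a weaker region. SGK1, a kinase induced by glucocorticoids, had the region with the MAF and AP-1 match printed above, with 68.6, 69.7 and 66.0 against 59.3, 57.8 and 48.9. DUSP1, a MAPK phosphatase, had 89.8, 84.8 and 84.1 against 75.5, 76.4 and 60.7. In all 3 regions the treated libraries agreed within 6 points.

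Signalling and other lists gave the remaining named members. The MAPK list had 3 stronger and 16 weaker among 130 regions (2.31% and 12.3%), with DUSP6 and the kinase gene MAP3K8 beside DUSP1, at margins of 17.6 and 19.6 points. MAF targets had 2 stronger and 3 weaker among 44 (4.55% and 6.82%), at CX3CR1, the fractalkine receptor gene, and DEPTOR, an mTOR inhibitor gene, with margins of 14.7 and 7.29 points. The RUVBL1/2 complex genes had 1 stronger and 1 weaker among 38 (2.63% each). The stronger one lay in an intron of RUVBL1 itself, a subunit of the inhibited complex, with 89.3, 90.3 and 85.2 against 77.2, 70.1 and 73.7. Interferon response genes had 1 stronger region, at OAS2, and 6 weaker among 50 (2% and 12%). B cell genes had 1, at CIITA, and 6 among 65 (1.54% and 9.23%). E2F and DNA replication genes had 1, at E2F7, and 9 among 25 (4% and 36%). Genes of E proteins and their ID inhibitors had 0 stronger and 5 weaker among 41 (0% and 12.2%). DUSP6, DEPTOR, OAS2 and E2F7 were also among the genes with weaker regions on their lists.

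Sequence was not used by the rule, and the motif content of the members differed from that of the background. From the same experiment, the paper's footprinting had already reported more binding of MAF and of the factor TCF4 with CB-6644. It had also reported less binding of IRF4 and ATF4/CEBP, so the shares of these motifs are not independent of earlier results of these data. Within 100 bp of the summit, on both strands, 141 members (17.1%) had a MAF match, TGCTGAC, against 3.86% of weaker and 6.66% of all shared distal regions. The CAGGTG E-box was found in 360 members (43.6%), in 29.8% of weaker and in 34.3% of all regions. NF-kB matches were in 86 members (10.4%), in 3.29% of weaker and in 5.03% of all regions. Of the 1888 shared distal regions with a MAF match, 7.47% were stronger and 6.78% weaker, beside 2.91% and 11.7% of all regions. The MAF share of the members exceeded that of all regions by 10.4 points, and by 6.43 points where the members were chosen without the pair of libraries with the shortest peaks.

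IRF and ATF4-CEBP matches were scarcer in the members. The IRF motif, GAAA followed by any 2 bases and GAAA, was in 4.73% of stronger, 16.2% of weaker and 10.6% of all regions. The ATF4-CEBP motif, TGATGNAA, was in 1.94%, 5.80% and 3.26%. AP-1, TGANTCA, was in 16.6% of stronger and 14.4% of weaker regions, whose intervals overlap, and in 12.9% of all. None of the 6 motifs was found in 30.3% of members, 42.4% of weaker and 42.8% of all regions.

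Of the other 22 motifs searched, 5 had intervals in stronger and weaker regions that did not overlap. Higher in the stronger regions were the CAGCTG E-box at 31.2%, 15.9% and 20.4% in stronger, weaker and all regions, the CACGTG E-box at 6.18%, 3.47% and 4.73%, and the long MAF recognition element at 3.27%, 0.906% and 1.48%, each match of which also holds an AP-1 match. Lower were STAT at 3.88%, 7.58% and 5.52%, and CTCF at 0.848%, 2.54% and 4.92%. CTCF, which marks insulators and loop anchors, was thus scarcer in both moving sets than in all regions.

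**Figure D3:**
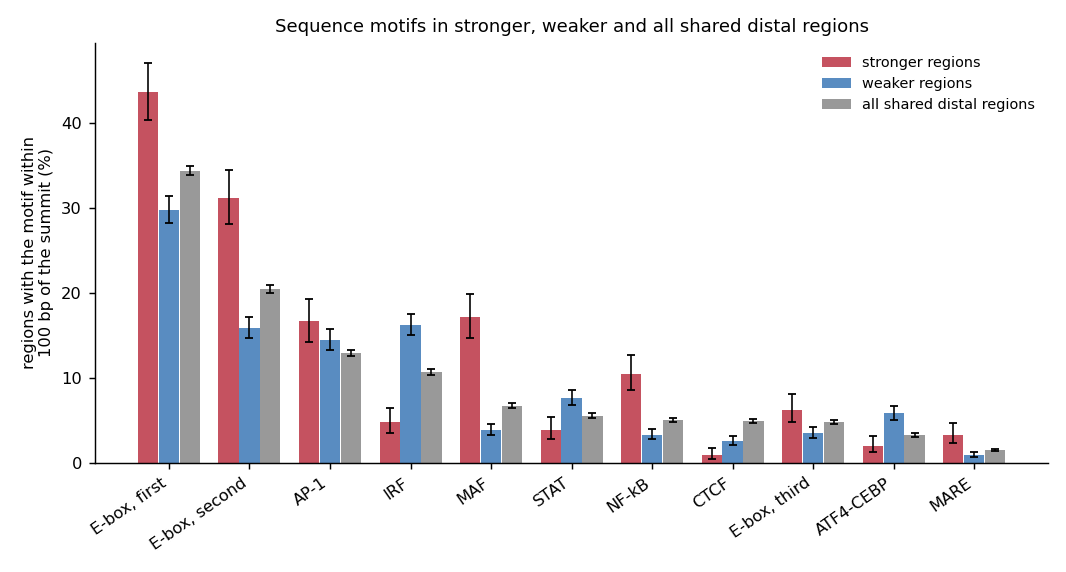
Share of regions (vertical axis, %) with each motif within 100 bp of the summit, for stronger, weaker and all shared distal regions, with 95% Wilson intervals (E-box, first is the CAGGTG motif, and the other E-boxes are in the order named in the text). MAF is at 17.1%, 3.86% and 6.66% and IRF at 4.73%, 16.2% and 10.6% in stronger, weaker and all regions.

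The MAF difference was present at each level of base composition. Median GC was 49.3% in stronger, 45.8% in weaker and 49.8% in all regions. With all regions weighted to the GC classes of the members, the MAF share was 6.94%, the E-box share 34.97%, the NF-kB share 5.05% and the IRF share 10.6%. In each of 5 classes of GC, MAF was more frequent in stronger than in weaker regions, from 14.6% against 6.04% in the middle class to 19.5% against 2.38% in the class from 43.3% to 47.3% GC. NF-kB was higher in 4 of the 5 classes, and IRF was lower in all 5.

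Members with larger margins held MAF matches more often. Among 371 members with a margin of 5 to 10 points 12.7% (9.66% to 16.4%) had one, and among 316 with 10 to 20 points 19.0% (15.05% to 23.7%). The share was 22.0% (15.3% to 30.7%) of 109 members with 20 to 30 points and 34.5% (19.9% to 52.7%) of 29 above that. Neighbouring classes overlap in their intervals, while the first and the last do not. The median margin was 13.2 points in members with a MAF match and 10.4 in those without. The E-box had no such order, with 46.1%, 43.7%, 34.9% and 44.8% over the same classes, nor had NF-kB, with 11.1%, 10.4%, 6.42% and 17.2%.

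**Figure D4:**
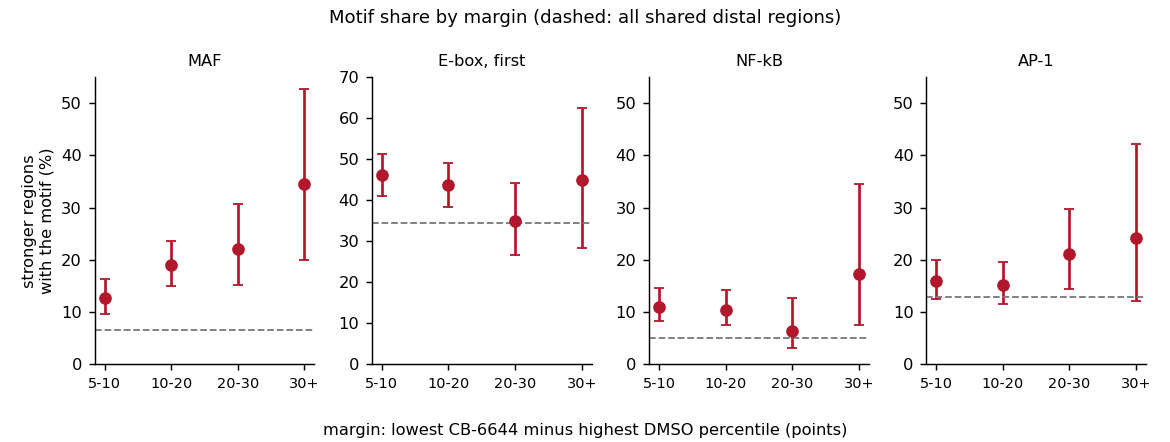
Share of stronger regions with a motif (vertical axis, %) in 4 classes of margin (horizontal axis, points), with 95% Wilson intervals and a dashed line at the share in all shared distal regions; the first E-box is CAGGTG. The MAF share goes from 12.7% to 34.5% over the classes, against 6.66% in all regions.

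Combinations of these motifs were counted after their single shares were known. Shared distal regions with none of MAF, CAGGTG E-box and NF-kB were stronger in 2.06% of 16459 cases and weaker in 13.1%. With 1 of the 3 motifs 3.63% of 10727 were stronger, with 2 of them 8.27% of 1125, and with all 3 it was 4 of 22 regions, 18.2% (7.31% to 38.5%). The share of weaker regions went down over the same steps, from 13.1% to 10.1%, 5.96% and 4.55%. MAF matches without an IRF match went with 7.89% stronger among 1737 regions, and MAF with IRF matches with 2.65% (1.03% to 6.61%) among 151. IRF matches without MAF had 1.22% stronger and 18.3% weaker among 2863.

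Matches of the E-box lay nearer to the summit in members than in weaker regions. The nearest CAGGTG was within 25 bp of the summit in 47.2% (42.1% to 52.4%) of stronger regions that had one, in 38.4% (35.5% to 41.5%) of weaker and in 41.2% of all. For MAF the shares were 36.9% (29.4% to 45.1%), 30.5% (23.2% to 38.9%) and 34.0%, which overlap. For NF-kB they were 44.2% (34.2% to 54.7%), 33.9% (25.7% to 43.2%) and 34.6%.

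A search over all 2080 distinct 6-mers, with no list of motifs, put the MAF core first. TGCTGA, read on either strand, was in 44.2% of stronger, 17.0% of weaker and 22.8% of all regions, 1.94 times the share in all regions and the highest ratio among the 1280 6-mers found in at least 5% of members. GCTGAC, which overlaps it in the MAF motif, came next with 27.9%, 11.6% and 15.5%. Next was GTCAAC, in 9.21% of members with a ratio of 1.62. It was followed by ACATGT, in 8% with a ratio of 1.61, and by AATGCT, in 17.0% with a ratio of 1.56. TGCTGA was thus in many more members than the whole 7-base MAF motif.

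A small part of the TGCTGA count came from a repeated sequence, without which the share of members with TGCTGA was 43.5% rather than 44.2%. Shared distal regions were joined into groups where the windows searched for motifs had at least 20 sequences of 14 bases in common, on either strand, a grouping by sequence alone that was made after the windows had been seen. The largest group held 583 regions, of which 21 (3.60%) were stronger and 73 (12.5%) weaker, close to the shares of all regions. The next held 203 regions, of which 20 (9.85%, 6.47% to 14.7%) were stronger and 6 (2.96%, 1.36% to 6.30%) weaker, the reverse of the order in all regions. A further group, with 68 regions, had 0 stronger and 6 weaker. In the group of 203 the median window's 20-mers occurred 19 times in hg38, against 1 time for all shared distal regions, so it is a repeated element, spread over 22 chromosomes. No repeat annotation was used here, and its class is not given. Peak names in the lists carry words for a mapping-quality filter and for removal of duplicates, but how reads that fit several copies were placed is not given in the sources used here.

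Windows of 2 of its stronger members, chosen after their values were seen, share stretches that at least 30 regions of the group hold, set in capitals. EDEM1 (chr3:5376912-5377032) and THSD7B (chr2:136469094-136469214) are both read on the plus strand of hg38. Each has the stretch that contains TGCTGA.
EDEM1: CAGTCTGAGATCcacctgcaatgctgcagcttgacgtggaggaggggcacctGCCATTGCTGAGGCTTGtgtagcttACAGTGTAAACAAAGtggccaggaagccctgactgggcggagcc
THSD7B: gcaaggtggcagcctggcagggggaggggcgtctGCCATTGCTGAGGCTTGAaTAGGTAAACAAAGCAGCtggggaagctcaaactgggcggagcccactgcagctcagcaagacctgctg

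The 20 stronger regions of this group included the MTERF1 region with the second largest margin of all members, the more distant EDEM1 region and the upstream NFKB1 region. Their median percentile was 84.4, 66.2 and 80.5 in CB-6644 replicates 1 to 3 and 47.9, 38.1 and 41.0 in DMSO replicates 1 to 3. CB-6644 replicate 2 ranked the group lower than the other treated libraries, also over all 203 regions, whose medians were 79.9, 52.8 and 78.6 with CB-6644 and 66.2, 70.8 and 73.2 with DMSO. The mean CB-6644 percentile was above the mean DMSO percentile in 42.9% of the 203, against 34.8% of all shared distal regions, so most copies did not have the higher mean with CB-6644. The group's share of stronger regions exceeded that of all regions by 6.94 points, by 16.0 points without CB-6644 replicate 2, by 3.32 points at a margin of 10 and by 2.42 points with lists of equal length. A TGCTGA was in 51.2% of the group's windows but a full MAF match in 3.45%. With the group left out, TGCTGA was in 43.5%, 16.9% and 22.6% of stronger, weaker and all regions and MAF in 17.4%, 3.87% and 6.69%.

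At a stricter limit of 40 shared sequences of 14 bases the largest groups held 103 and 66 regions. Of the 66, 11 (16.7%, 9.57% to 27.4%) were stronger and 0 weaker, and of the 103, 7 (6.80%) were stronger and 5 weaker. At a looser limit of 8 it merged into a group of 1930 regions, in which 2.90% were stronger and 13.5% weaker. Windows with at least 25% of their 20-mers found 10 or more times in hg38 were 6.06% (4.63% to 7.90%) of stronger, 4.92% of weaker and 5.12% of all regions, a share that the interval of the stronger regions includes.

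**Figure D5:**
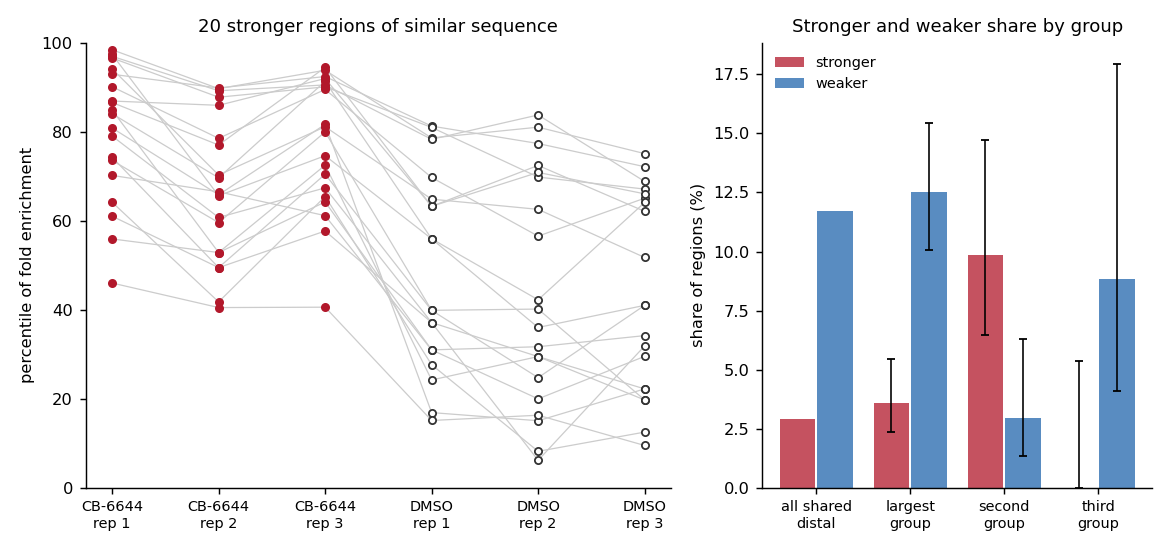
Left, percentile of fold enrichment (vertical axis) of the 20 stronger regions of the second largest similar-sequence group in the 6 libraries, filled for CB-6644 and open for DMSO, with a line joining the values of each region. Right, share of regions (%) that were stronger or weaker in all shared distal regions (2.91% and 11.7%) and in the 3 largest groups, with 95% Wilson intervals for the groups; the second group has 9.85% stronger and 2.96% weaker.

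In position the members were much like other distal regions. Introns of coding genes held 340 (41.2%, 37.9% to 44.6%), against 44.9% of weaker and 43.3% of all regions, and intergenic sequence held 314 (38.1%), against 34.9% and 35.4%. Coding exons held 14 members and other exons 17. Members lay farther from a TSS than all regions and were narrower, with median distances of 42.2 kb in stronger, 39.3 kb in weaker and 30.9 kb in all regions and median widths of 387, 443 and 451 bp. The share that was stronger varied between chromosomes, from 1.06% of the regions on chromosome 14 to 3.93% on chromosome 5. The intervals of chromosomes 14 (0.487% to 2.29%), 16 (0.999% to 2.79%) and 19 (0.572% to 2.05%) ended below the share of all regions, and those of chromosomes 3 (2.96% to 4.60%) and 5 (3.09% to 4.98%) began above it.

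Stronger regions were near one another somewhat more often than other regions were near them within 50 kb, but not within 10 kb. Another stronger region lay within 10 kb of 0.970% (0.492% to 1.90%) of members, against 1.10% of all regions. Another stronger region lay within 50 kb of 8% (6.34% to 10.1%) of members, against 5.18% of all and 4.59% of weaker regions. At this distance a weaker region was as frequent near members, 16.1% against 16.6% of all regions, and so was a region called in the DMSO libraries only, 17.9% against 18.3%. Within 10 kb, however, 7.88% (6.23% to 9.92%) of members had a weaker region and 7.64% (6.01% to 9.65%) a DMSO-only region, against 3.48% and 4.77% of all. Promoter regions of the nearest genes were ranked higher with CB-6644 by a median of 1.68 points for 479 genes with a member, 1.47 points for genes with a weaker region and 1.31 points for all.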

How the data were processed

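The data were 6 Omni-ATAC peak lists of MM.1S cells, 3 with CB-6644 and 3 with DMSO, grouped and numbered by their labels. Per the submitters' processing notes, reads were aligned to hg38 with Bowtie2 2.4.2 and peaks called with MACS3 3.0, for each library apart. MACS3 settings are not given in the sources used here. The deposited lists give for each peak a fold enrichment, the ratio of summit pile-up to local background, with no scaling between libraries. They also give the authors' −log10 p-value and −log10 q-value, and the summit offset within the peak as deposited. Depth is not in the lists. Pile-up and local background were solved from fold and −log10 p as a Poisson tail, with 1 added to each, which matched 100% of peaks within 0.01. Background tags per kb were the lowest local background divided by the length of the shortest peak. The authors ran edgeR on reads per region. Peak lists give no such reads, and no test of difference was made here.

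Peaks were merged, filtered and ranked as described with the results. TSSs were those of protein-coding transcripts in GENCODE release 44, which matches the build, and 0 peaks ran past a chromosome end. Distance ran from the region's edge. The highest peak of a library stood for a region. Motifs were searched as consensus letters on both strands within 100 bp of the summit of the most significant peak, and matches are descriptions, not sites. GC used the same windows. Copies of 20-mers were counted on both strands of chromosomes 1 to 22, X and Y. Wilson intervals are at 95%. The rule, pile-up solution and motif search were tested on simulated lists. Python 3.11.15, numpy 2.4.6, pandas 2.3.3, scipy 1.17.1 and matplotlib 3.10.9 were used.

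The members and gene lists were chosen with earlier results of these data known. Regions named are the 15 with the largest margin, the 5 with the highest treated rank and 3 on either side of the limit. Genes named are the 10 with the most members and listed genes with a member, motifs the 6 of main interest and others whose intervals in stronger and weaker regions did not overlap, and 6-mers the 5 with the highest ratio. A gene and a sequence that these rules name are not reported here. Named combinations of motifs and the similar-sequence groups were added after values were seen. Alternatives changed the ranked column, the set ranked, list length, margin, libraries, pairing, peak standing for a region, width and TSS limits, gene assignment and motif windows.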

Additional observations from a re-analysis of the deposited data

Results flagged for a closer look

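Outside the chromosomes analysed, 21 peaks on the mitochondrial genome were called in CB-6644 replicate 2, against 2 and 2 in the other CB-6644 libraries and 13, 4 and 2 in the DMSO libraries, which puts this library above every control.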

How the results depend on the processing

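Direction held for the 6 main motifs and for the similar-sequence group under all alternatives run, but the number of regions did not. Stronger and weaker regions numbered 825 and 3313, with 41 genes of 2 or more members. Percentiles over the shared distal regions gave 1956 and 2073, with 197 genes, and lists of equal length 1704 and 1543, with 171 genes, so the excess of weaker regions depends on which peaks are ranked. A margin of 0 gave 1708, 5850 and 150, a margin of 10 gave 454, 1959 and 12, and ranking by −log10 p gave 76 genes. Leaving out 1 library gave 1097 to 2052 stronger regions, 3846 to 6393 weaker regions and 72 to 207 genes, with the most stronger regions, 2052, without DMSO replicate 1, and 1532 without CB-6644 replicate 2, and the intron share between 40.1% and 45.7%. Only the 4 libraries with longer peaks gave 3034, 8410 and 335, and these with percentiles over shared distal regions, added after seeing the data, 5825, 5467 and 922. The intron share was 45.2% with lists of equal length.

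The excess of MAF over all regions, 10.4 points, was 7.40 with percentiles over shared regions, 6.79 with equal lists, 7.91 at a margin of 0, 14.04 at a margin of 10, 6.43 with the 4 libraries, 4.70 with these and shared percentiles, 7.88 in 50 bp windows and 7.01 to 10.7 without 1 library. With whole regions searched, IRF was at -7.52 points and the E-box at 4.36, and with the 4 libraries and shared percentiles NF-kB was at 2.96 and AP-1 at 1.14. Of 243 values recomputed, 193 moved by no more than their limit (1.5 times for counts, the interval for shares). The differences for motifs and for the similar-sequence group kept their sign, while counts, GC and plain shares have no sign to change. Members were in introns less often than all regions, 41.2% against 43.3%. That order turned to 45.7% against 43.3% without DMSO replicate 1 and to 45.2% against 43.5% with equal lists. Weighting to the members' signal level was also added after seeing the data and moved no motif share past its interval.

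The labels number replicates 1 to 3 in both groups but name no shared culture or batch. Deviations of same-numbered libraries from their group means correlated at -0.454, -0.282 and 0.339. The highest value, 0.576, was between CB-6644 replicate 2 and DMSO replicate 1, the libraries with the shortest peaks. Deviations within a group depend on one another, so these values cannot show whether the numbers pair libraries. A replicate block, with the margin required within each number only, gave 1400 stronger and 4820 weaker regions and 97 genes. Lists without reads limit precision most in CB-6644 replicate 2.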
